A study of Mus musculus with 11 samples.

Results

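The genes of glycolysis and glucose transport were followed in RNA sequencing of microglia from mice with brain amyloid. The set held 32 genes chosen by name, out of 55401 rows in the deposited gene table, and it covers sugar uptake, each enzymatic step from glucose to pyruvate, lactate handling, pyruvate entry into mitochondria and the regulator Hif1a. All 32 were among the 20390 genes that passed the filter on low counts. The symbol Aldoa is carried by 2 rows, of which the row with most counts was used. The other averaged 0.626 CPM (the usual unit of counts relative to library size, here scaled for library composition) and was not called in any comparison.

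The question behind the study was whether lowering Inpp5d, the gene of the lipid phosphatase SHIP1, modifies the effects of losing TREM2 signalling. TREM2 needs the adaptor DAP12, the product of Tyrobp, to signal. Live cells positive for CD11b and CD45 were sorted from the brains of C57BL/6 mice, and these were taken as microglia. The sample labels give an age of 9 to 10 months, and the design text gives 9.

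There were 2 libraries of Tyrobp-/-;NLGF mice, 3 of Tyrobp-/-;Inpp5d+/-;NLGF mice (called the compound mutant here), 3 of Inpp5d+/-;NLGF mice (called the Inpp5d single mutant here) and 3 of NLGF mice. All 4 groups carry NLGF, an App knock-in with familial Alzheimer mutations that makes amyloid plaques, so no group was free of the amyloid model. The 6 libraries of the Inpp5d single mutant and of NLGF, whose labels name no Tyrobp allele, are called Tyrobp-intact. The labels give the alleles as genotypes and name no cell-type-restricted deletion, so blood-derived cells of these mice carry the same alleles. The sample names of the 5 Tyrobp-/- libraries are numbered in a range apart from the other 6, so genotype cannot be told apart from anything shared by mice of 1 range.

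Glycolysis splits glucose into pyruvate in the cytosol and yields ATP without oxygen. Cells that export the resulting lactate can run it fast, and activated macrophages and microglia are known to do so. HIF-1α, the protein made from Hif1a, is degraded while oxygen is present. When stabilised, or when its mRNA rises in activated myeloid cells, it binds DNA with its partner ARNT at hypoxia response elements and raises glucose transporters, most glycolytic enzymes, lactate dehydrogenase A and pyruvate dehydrogenase kinase 1. In microglia, TREM2 and DAP12 have been linked to energy metabolism through PI3K, AKT and mTOR, and SHIP1 removes a phosphate from the lipid that PI3K makes.

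Library totals ran from 29490567 to 66637052 counts, and the floor of 3 counts equalled between 0.0477 and 0.1001 CPM. Tyrobp was at 3.22 to 8.94 CPM in the Tyrobp-/- libraries, against 1952 to 2559 CPM in the Tyrobp-intact libraries. Inpp5d was at 189.7, 259.8 and 259.4 CPM in the compound mutant, against 449 and 447 CPM in Tyrobp-/-;NLGF, and at 279.7, 219 and 191 CPM in the Inpp5d single mutant, against 436, 205 and 313 CPM in NLGF, where the ranges overlapped. The 10 microglial markers summed to 48769 to 52360 CPM in the Tyrobp-/- libraries and to 45960.0 to 55529 CPM in the Tyrobp-intact ones. The 14 neutrophil markers reached sums of 19503 and 4726 CPM in Tyrobp-/-;NLGF and 495, 10192 and 2651 CPM in the compound mutant, against 364 to 569 CPM in the Tyrobp-intact libraries. The 9 monocyte markers summed to 125 to 2045 CPM in the Tyrobp-/- libraries, against 16.3 to 78.0 CPM in the Tyrobp-intact ones. Of the 14 neutrophil markers 0 were at 0 in the Tyrobp-/- libraries, and 1 to 7 were at 0 in each Tyrobp-intact library.

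In Tyrobp-/- microglia 10 of the 32 genes fell and 0 rose. These counts come from the pooled comparison of 5 Tyrobp-/- libraries with 6 Tyrobp-intact ones, in a model with a term for Tyrobp and a term for Inpp5d genotype. A call required an adjusted p below 0.05 in edgeR's quasi-likelihood test with Benjamini-Hochberg adjustment over all 20390 genes tested. Among all genes tested, 5.37% were called in this comparison, 2.91% lower and 2.45% higher. The members had a smaller median SE (0.148, against 0.322 over all genes), so shares over all genes are not matched for precision. An unadjusted p under 0.05 was found for 16 members, where 19.4% of all genes had one. The 10 were Hif1a, Pkm, Pfkl, Gapdh, Slc2a6, Slc2a1, Aldoa, Slc16a1, Pdk1 and Eno1, and their levels were 1.28 to 2.68-fold lower in the Tyrobp-/- libraries. For 7 of the 32 every Tyrobp-/- library lay below every Tyrobp-intact library, and for 0 above, against 3.47% and 2.7% of all genes.

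The median log2 fold change of the 32 members was -0.38 in the pooled comparison, against 0.03 over all genes tested. A negative sign was found for 24 of the 32, and for 9673 of all 20390 genes. The sign count is not particular to Tyrobp loss, because 24 of the 32 were also negative in the Inpp5d single mutant against NLGF. The median there was -0.11. Set against the mean of NLGF, the median member had log2 values of -0.29 and -0.48 in Tyrobp-/-;NLGF and of -0.45, -0.39 and -0.43 in the compound mutant. In the Inpp5d single mutant it lay at -0.25, -0.03 and 0.02, and in NLGF at -0.15, 0.07 and 0.07. Replicate 1 of the Inpp5d single mutant was thus the lowest Tyrobp-intact library and came close to Tyrobp-/-;NLGF replicate 1, as the heat map of all members shows. In bulk RNA, fewer cells with a transcript and less transcript per cell cannot be told apart.

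**Figure D1:**
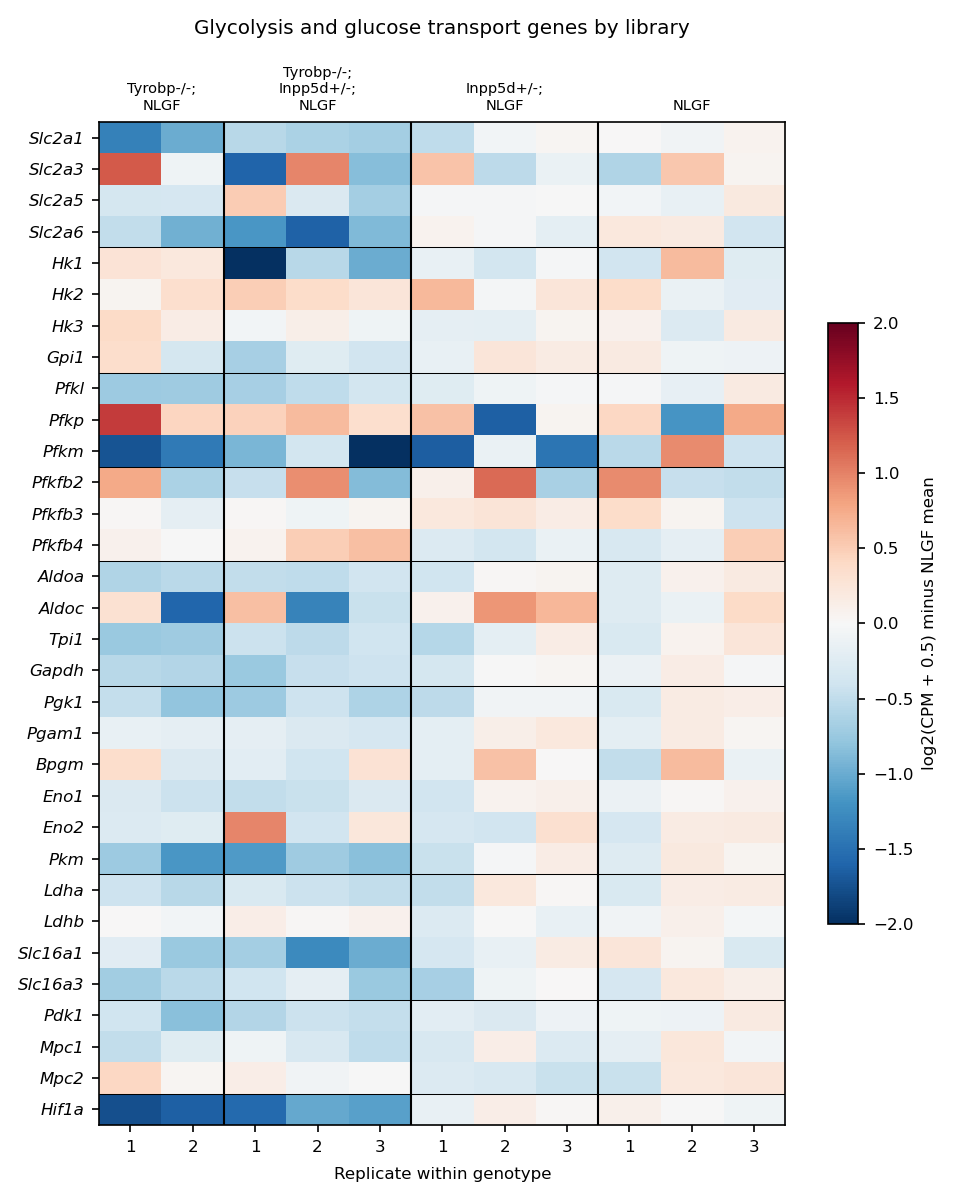
Log2(CPM + 0.5) of each of the 32 members in each of the 11 libraries, minus the mean of the 3 NLGF libraries. Genes follow the pathway and libraries run from Tyrobp-/-;NLGF to NLGF. The Hif1a row is low in all 5 Tyrobp-/- libraries, where the member median lies between -0.48 and -0.29, while replicate 1 of the Inpp5d single mutant has a median of -0.25.

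Between single genotypes, where fewer libraries enter, fewer members passed. Tyrobp-/-;NLGF against NLGF gave 3 members, all lower (Hif1a, Slc2a1 and Pfkl), where 0.608% of all genes were called lower, 0.255% higher and 0.863% in either direction. The compound mutant gave 1 lower member, Hif1a, against the Inpp5d single mutant (0.633% of all genes called lower, 0.897% in either direction) and also against NLGF (0.633% lower, 0.873% in either direction). The libraries of Tyrobp-/-;NLGF lay wholly below those of NLGF for 16 members and above for 0, where 14% and 15.6% of all genes did so. In the compound mutant 11 members lay wholly below and 3 above the Inpp5d single mutant (9.22% and 9.36% of all genes), and 14 below and 0 above NLGF (8.92% and 9.04%). An unadjusted p under 0.05 was found for 14, 15 and 14 members in these 3 comparisons, where 12.1%, 13.4% and 13% of all genes had one. The members' median log2 fold changes were -0.40, -0.31 and -0.42 in the same order, against 0.00, 0.02 and 0.03 over all genes. Tyrobp-/-;NLGF and the compound mutant were both set against NLGF, so those comparisons share the NLGF libraries.

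**Figure D2:**
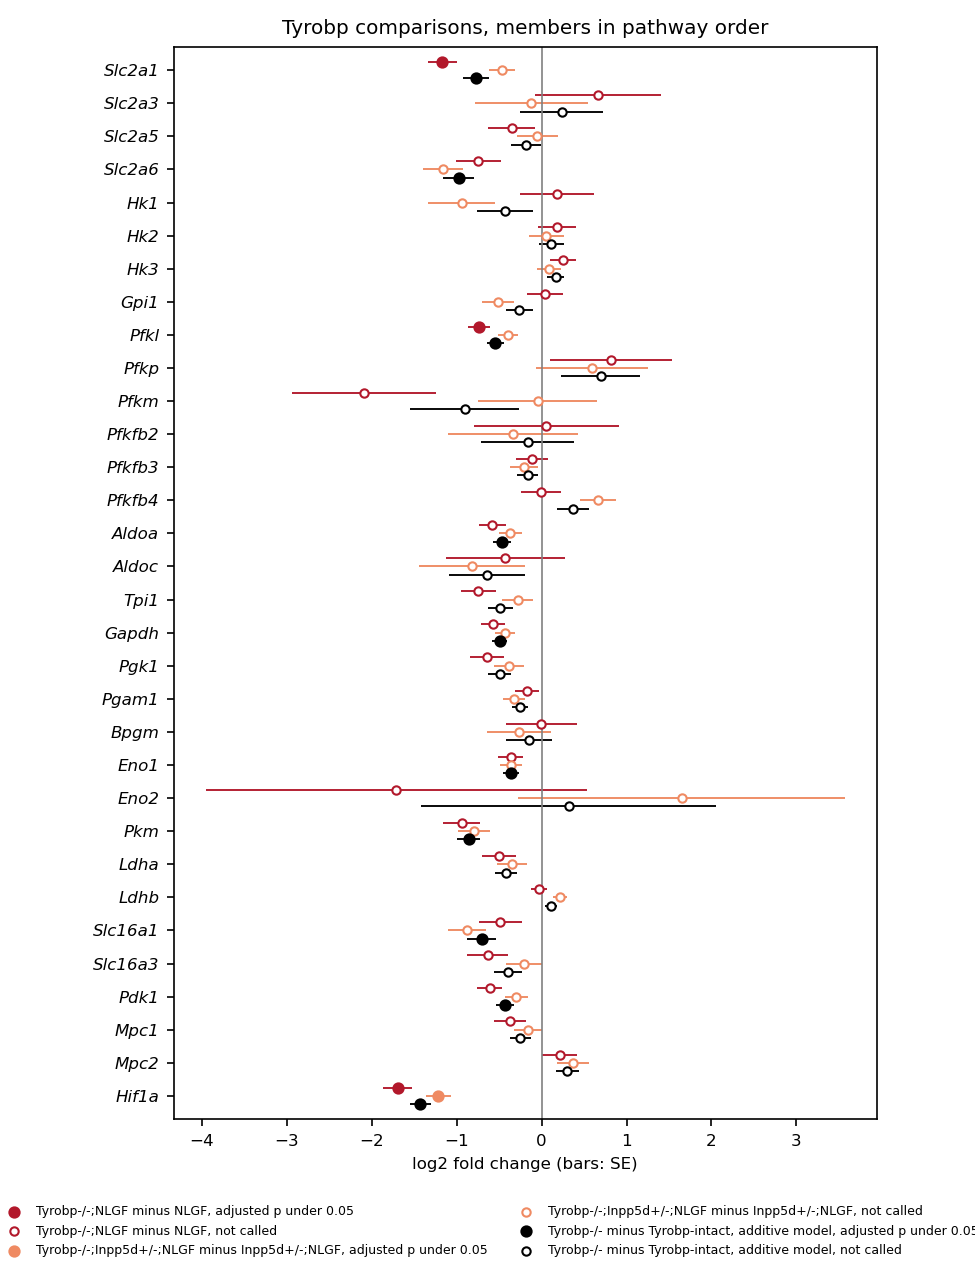
Log2 fold change of the 32 members in pathway order, with the SE of each as a bar, for Tyrobp-/-;NLGF against NLGF, the compound mutant against the Inpp5d single mutant and the pooled comparison, with filled points for calls. Negative values are lower with Tyrobp-/-, and Hif1a lies at -1.69 in Tyrobp-/-;NLGF against NLGF and at -1.42 in the pooled comparison.

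Several of these calls lay near the threshold. Of the 10 pooled calls, 5 (Hif1a, Pkm, Pfkl, Gapdh and Slc2a6) passed in each of the 11 fits that left out 1 library, and Slc2a1 was lost in 1 of them. Aldoa was lost in 8 of those fits and kept without compound mutant replicate 3, replicate 1 of the Inpp5d single mutant or NLGF replicate 1. Slc16a1 was lost in 9 and kept without Tyrobp-/-;NLGF replicate 1 or NLGF replicate 3. Pdk1 was lost in 10 and kept without replicate 2 of the Inpp5d single mutant, and Eno1 was lost in 10 and kept without replicate 1 of that group. Over the 11 fits the log2 fold change lay between -0.54 and -0.41 for Aldoa, -0.84 and -0.61 for Slc16a1, -0.47 and -0.33 for Pdk1, and -0.43 and -0.32 for Eno1. The count of pooled calls was 5 without Tyrobp-/-;NLGF replicate 2, where 570 of all genes were called against 1094 with all libraries. It was 6 without compound mutant replicate 2 (725 of all genes), replicate 3 of the Inpp5d single mutant (777) or NLGF replicate 2 (859). In Tyrobp-/-;NLGF against NLGF the count was 1 without Tyrobp-/-;NLGF replicate 1 (31 of all genes, against 176 with all libraries), without its replicate 2 (36) or without NLGF replicate 3 (108). Leaving out NLGF replicate 3 gave 2 members in the compound mutant against the Inpp5d single mutant (172 of all genes) and 2 against NLGF, where 100 of all genes passed.

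The regulator Hif1a showed the largest change among the 10 pooled calls. Its level was 139.9 and 152 CPM in Tyrobp-/-;NLGF and 160.2, 232.9 and 223 CPM in the compound mutant, against 428, 519.6 and 479.8 CPM in the Inpp5d single mutant and 504, 468 and 445 CPM in NLGF. All 5 Tyrobp-/- libraries lay far below all 6 Tyrobp-intact ones, with no overlap, while the Inpp5d single mutant and NLGF covered the same range. Hif1a averaged 182 ± 43.0 CPM in the Tyrobp-/- libraries and 474 ± 34.5 CPM in the Tyrobp-intact ones (SD, n = 5 and n = 6), a log2 fold change of -1.42 (SE 0.13, edgeR adjusted p = 0.000206). It was 3.24-fold lower in Tyrobp-/-;NLGF than in NLGF (adjusted p = 0.00199 in edgeR), 2.32-fold lower in the compound mutant than in the Inpp5d single mutant (0.00525) and 2.30-fold lower than in NLGF (0.00563). Hif1a was the member whose 4 Tyrobp calls held in each fit that left out a library.

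Reads on Hif1a share exons with annotated neighbours. The antisense gene Gm15283 and the same-strand gene Snapc1l overlap it, and the kit does not mark strand. In the pooled comparison Gm15283 had a log2 fold change of -1.23 (edgeR adjusted p = 0.000797) and Snapc1l of -1.20 (0.00135). Both averaged less than Hif1a over the 11 libraries, at 47.6 and 29.5 CPM against 341 CPM.

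The stretch upstream of the start site is shown for the 3 members called in most comparisons, because members that fell together can be compared for letters that HIF-1 is known to bind. The core of a hypoxia response element is ACGTG or GCGTG, and CACGTG is the E-box, which contains ACGTG on both strands. Sequences are those of RefSeq on build GRCm38.p6, written along the gene 5′ to 3′ with the matches on either strand in capitals, where CACGC is GCGTG read on the other strand. Hif1a is on the plus strand at chr12:73907617-73907866, which ends 1 base before the RefSeq start. Pfkl is on the minus strand at chr10:78009808-78010004 and also ends 1 base before it. Slc2a1 is on the plus strand at chr4:119108495-119108740 and ends 5 bases before it. The deposited annotation places these protein-coding genes at chr12:73901375-73947530 (Hif1a), chr10:77986947-78010083 (Pfkl) and chr4:119108711-119137983 (Slc2a1). For each of the 3 genes its outermost start lies upstream of the RefSeq start, so that the stretches of Hif1a and Pfkl lie inside the annotated gene, and that of Slc2a1 spans the annotated start.
Hif1a: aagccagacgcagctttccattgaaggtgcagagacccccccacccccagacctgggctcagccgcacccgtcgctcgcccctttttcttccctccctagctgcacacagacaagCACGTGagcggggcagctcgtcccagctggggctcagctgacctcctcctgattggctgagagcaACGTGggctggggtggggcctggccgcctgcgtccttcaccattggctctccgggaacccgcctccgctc
Pfkl: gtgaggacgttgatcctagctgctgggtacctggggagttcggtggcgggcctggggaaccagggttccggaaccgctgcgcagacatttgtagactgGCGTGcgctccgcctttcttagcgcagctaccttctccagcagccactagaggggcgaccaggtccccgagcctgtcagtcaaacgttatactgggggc
Slc2a1: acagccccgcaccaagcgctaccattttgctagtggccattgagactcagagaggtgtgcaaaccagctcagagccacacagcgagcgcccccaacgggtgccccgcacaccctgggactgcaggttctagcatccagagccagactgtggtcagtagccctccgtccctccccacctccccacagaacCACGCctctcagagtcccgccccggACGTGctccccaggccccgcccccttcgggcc
The Hif1a window holds 1 E-box and 1 further ACGTG, the Pfkl window 1 GCGTG, and the Slc2a1 window 1 GCGTG on the other strand and 1 ACGTG.

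Searched over the 250 bases before the start on both strands, ACGTG or GCGTG was found in 36 of the 47 windows listed for 31 members, or 76.6%, where 38.6% of 32851 windows of all genes held one. ACGTG alone was in 38.3% of member windows and 16.6% of all windows, GCGTG in 51.1% and 28.2%, and CACGTG in 12.8% and 6.02%. At least 1 window with ACGTG or GCGTG was found for 26 of the 31 genes. The share of all genes with such a window was not computed, so this count has no background here. The shares of windows are no substitute, because members had more windows per gene (47 for 31 genes) than all genes (32851 for 27025). No window of Slc2a3 was used here, the base composition of the windows was not matched, and a match describes letters, not a bound site.

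Among the hexose transporters, Slc2a1 and Slc2a6 fell while Slc2a5 and Slc2a3 did not pass. Slc2a1 encodes GLUT1, the main basal glucose transporter, and its level was 66.2 and 84.9 CPM in Tyrobp-/-;NLGF and 116, 109 and 106 CPM in the compound mutant, against 119, 162 and 174 CPM in the Inpp5d single mutant and 169.7, 161 and 178 CPM in NLGF. Tyrobp-/-;NLGF was lowest, the compound mutant came between, and every Tyrobp-/- library lay below the lowest Tyrobp-intact one, replicate 1 of the Inpp5d single mutant. Slc2a1 was 1.71-fold lower in the pooled comparison (log2 -0.77, SE 0.15, edgeR adjusted p = 0.0178) and 2.24-fold lower in Tyrobp-/-;NLGF than in NLGF (adjusted p = 0.0159 in edgeR). The pooled call was lost without Tyrobp-/-;NLGF replicate 2 (adjusted p = 0.0694), and the call against NLGF without either Tyrobp-/-;NLGF library (0.195 and 0.0776) or NLGF replicate 3 (0.0529). The antisense gene Gm12868 overlaps Slc2a1 and had a log2 fold change of -0.76 in the pooled comparison (edgeR adjusted p = 0.0571).

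Slc2a6 encodes GLUT6, a transporter of internal membranes that is induced in inflammatory macrophages. It was at 36.0 and 25.8 CPM in Tyrobp-/-;NLGF and 22.5, 16.3 and 27.5 CPM in the compound mutant, against 53.7, 50.03 and 44.6 CPM in the Inpp5d single mutant and 59.2, 57.4 and 38.7 CPM in NLGF. The groups did not overlap, although NLGF replicate 3 came close to Tyrobp-/-;NLGF replicate 1. Its pooled log2 fold change was -0.97 (SE 0.18, edgeR adjusted p = 0.0116). The compound mutant did not pass against NLGF (-1.23, adjusted p = 0.0508 in edgeR) or against the Inpp5d single mutant (-1.16, 0.0601), and without NLGF replicate 3 it passed in both (0.0454 and 0.0496).

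Slc2a5 encodes GLUT5, a fructose transporter and a known microglial gene, and it was the most abundant transporter of the set per length. It ranged from 716 to 1631 CPM in the Tyrobp-/- libraries and from 1036 to 1301 CPM in the Tyrobp-intact ones, with compound mutant replicate 1 the highest of all libraries (pooled log2 -0.18, SE 0.18, edgeR adjusted p = 0.673). Slc2a3, which encodes GLUT3, was scarce at 4.07 to 32.2 CPM and its highest values were in Tyrobp-/-;NLGF replicate 1 and compound mutant replicate 2, the libraries with most neutrophil marker RNA.

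The hexokinases, which trap glucose by phosphorylation, did not pass in the pooled comparison. Hk2 ranged from 111 to 150.1 CPM in the Tyrobp-/- libraries and from 91.2 to 169 CPM in the Tyrobp-intact ones, while Hk3 ranged from 87.9 to 122 CPM in the Tyrobp-/- libraries and from 77.6 to 106 CPM in the Tyrobp-intact ones. Their pooled log2 fold changes were 0.11 (SE 0.15) for Hk2 and 0.16 (SE 0.10) for Hk3, both with overlapping ranges. Hk1 was low, at 3.58, 10.7 and 7.76 CPM in the compound mutant, against 19.4 and 18.6 CPM in Tyrobp-/-;NLGF. Gpi1, the isomerase that follows, was at 226 and 138 CPM in Tyrobp-/-;NLGF and 111, 149 and 135 CPM in the compound mutant, against 159.6, 207 and 196 CPM in the Inpp5d single mutant and 199, 166 and 165 CPM in NLGF (pooled -0.26, SE 0.16).

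Phosphofructokinase catalyses the committed step, and its liver-type subunit Pfkl fell. Pfkl was at 118 and 119 CPM in Tyrobp-/-;NLGF and 124, 137 and 152 CPM in the compound mutant, against 166, 183 and 193 CPM in the Inpp5d single mutant and 193, 175 and 222 CPM in NLGF. The Tyrobp-/- libraries all lay below the Tyrobp-intact ones, and Tyrobp-/-;NLGF again lay below the compound mutant. The pooled log2 fold change was -0.54 (SE 0.10, edgeR adjusted p = 0.0110), and Tyrobp-/-;NLGF was 1.66-fold lower than NLGF (adjusted p = 0.0407 in edgeR). That second call was lost in 9 of the 11 fits that left out a library, with adjusted p values up to 0.307, and kept without compound mutant replicate 1 or 3. Pfkp and Pfkm were scarce, at 1.35 to 14.6 CPM and 0.784 to 9.34 CPM, and did not pass. Pfkp exons overlap those of Pitrm1 on the other strand over at most 2046 of 13401 bases, and reads within that overlap cannot be told apart.

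The bifunctional enzymes that make and break the main activator of phosphofructokinase did not pass either. Pfkfb3, the form with strong kinase activity, ranged from 180.0 to 212 CPM in the Tyrobp-/- libraries and from 153 to 264 CPM in the Tyrobp-intact ones (pooled log2 -0.16, SE 0.12). Pfkfb4 had a positive sign, with 103 to 158 CPM in the Tyrobp-/- libraries and 80.5 to 147 CPM in the others (pooled 0.37, SE 0.19, edgeR adjusted p = 0.315). Pfkfb2 was at 1.43 to 7.17 CPM. Its exons overlap those of the same-strand gene Gm29427, which averaged 0.752 CPM, and reads in shared exons cannot be assigned to 1 of them, so its level is uncertain.

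From aldolase to pyruvate kinase, 4 of 10 genes fell (Aldoa, Gapdh, Eno1 and Pkm). Gapdh, which reduces NAD+ while oxidising glyceraldehyde phosphate, was at 1185 and 1155 CPM in Tyrobp-/-;NLGF and 1039.8, 1258 and 1307 CPM in the compound mutant, against 1359.6, 1725 and 1772 CPM in the Inpp5d single mutant and 1596, 1920.2 and 1700.0 CPM in NLGF. The groups did not overlap, and replicate 1 of the Inpp5d single mutant was the nearest Tyrobp-intact library. Gapdh was 1.41-fold lower in the pooled comparison (log2 -0.49, SE 0.09, edgeR adjusted p = 0.0113).

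Pkm, the pyruvate kinase of most tissues, showed the largest called change among the enzymes. It was at 499.7 and 369.8 CPM in Tyrobp-/-;NLGF and 376, 505 and 463 CPM in the compound mutant, against 607, 816 and 911 CPM in the Inpp5d single mutant and 689.9, 948 and 859 CPM in NLGF. No Tyrobp-/- library reached the lowest Tyrobp-intact one. Pkm averaged 443 ± 65.8 CPM in the Tyrobp-/- libraries and 805 ± 132 CPM in the Tyrobp-intact ones (SD, n = 5 and n = 6), a pooled log2 fold change of -0.86 (SE 0.14, edgeR adjusted p = 0.00574). Against NLGF it did not pass in Tyrobp-/-;NLGF (-0.94, adjusted p = 0.0934 in edgeR) or in the compound mutant (-0.89, 0.0733). The same-strand model Gm49759 lies in Pkm exons and had a pooled log2 fold change of -0.88 (edgeR adjusted p = 0.00766), and counts over Pkm do not separate its M1 and M2 isoforms.

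Aldoa, the aldolase of muscle and most other tissues, was at 525 and 549 CPM in Tyrobp-/-;NLGF and 563, 561 and 612 CPM in the compound mutant, against 604, 806 and 826 CPM in the Inpp5d single mutant and 662, 844 and 903 CPM in NLGF. Eno1, the enolase outside muscle and neurons, was at 647 and 589 CPM in Tyrobp-/-;NLGF and 561, 584 and 647 CPM in the compound mutant, against 609.6, 832 and 855 CPM in the Inpp5d single mutant and 732, 809 and 844 CPM in NLGF. In both genes the only overlap came from replicate 1 of the Inpp5d single mutant, which lay among the Tyrobp-/- libraries. The pooled log2 fold changes were -0.46 for Aldoa (SE 0.11, edgeR adjusted p = 0.0323) and -0.36 for Eno1 (SE 0.09, 0.0476). Across the fits without 1 library the adjusted p reached 0.108 for Aldoa and 0.143 for Eno1, both without a Tyrobp-/-;NLGF library.

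Tpi1, Pgk1 and Pgam1, which convert the trioses between aldolase and enolase, had negative pooled values without passing. Pgk1 was at 100.3 to 130.1 CPM in the Tyrobp-/- libraries and 121 to 195 CPM in the Tyrobp-intact ones (log2 -0.49, SE 0.13, edgeR adjusted p = 0.0578). Tpi1 had a log2 value of -0.48 (adjusted p = 0.0994 in edgeR) and Pgam1 of -0.26 (0.157). Aldoc, Bpgm and Eno2, forms typical of neurons and astrocytes, red cells and neurons in that order, stayed at or below 14.4 CPM, and Eno2 at or below 0.791 CPM. Many of these enzymes have near-identical processed copies in the mouse genome, which makes their counts uncertain. Eno1b, a copy of Eno1, averaged 67.7 CPM, and how reads with several positions were counted is not given in the sources used here.

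**Figure D3:**
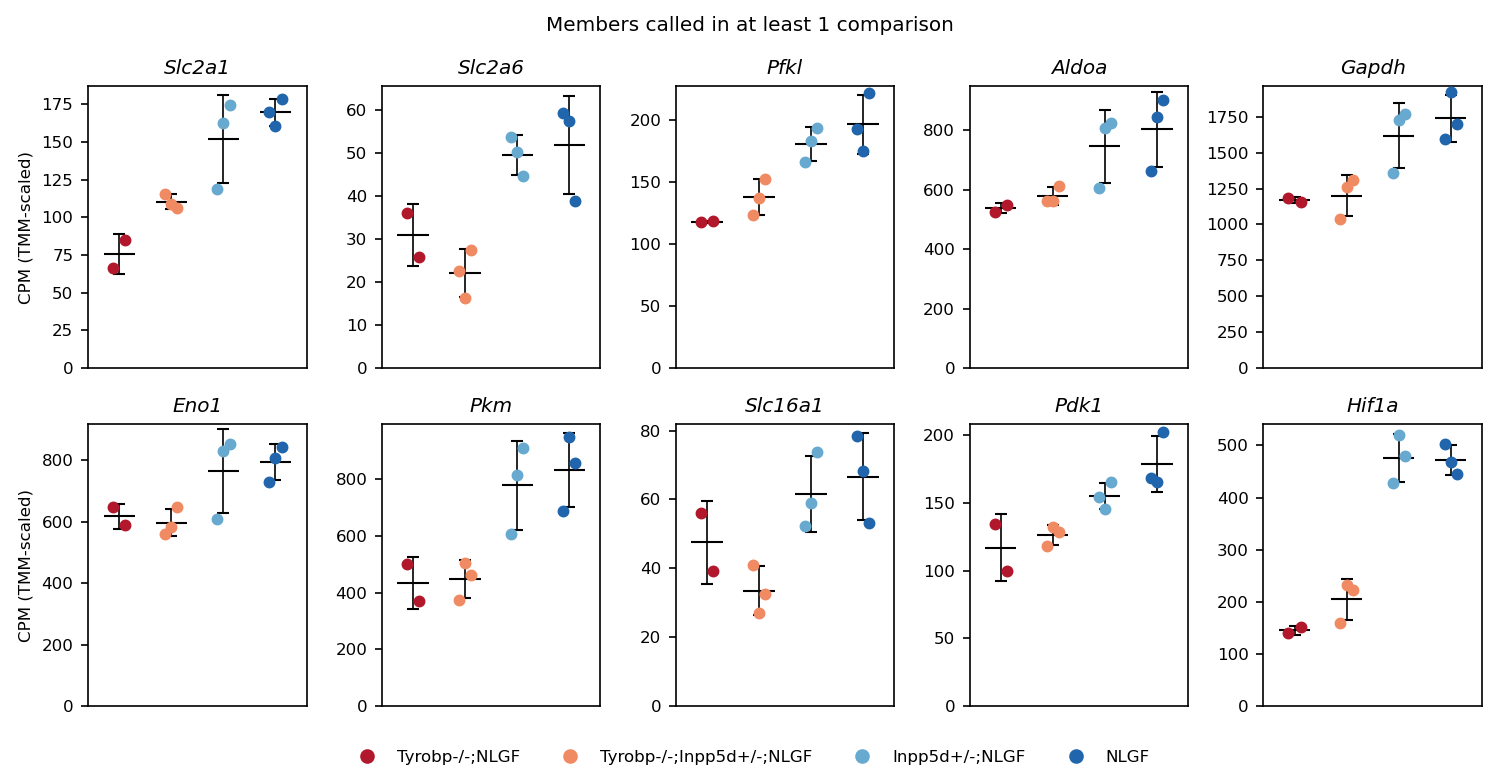
CPM of each of the 10 members called in at least 1 comparison, 1 point per library, with the group mean and SD as bars, from Tyrobp-/-;NLGF to NLGF, on axes that start at 0. Hif1a, Pkm, Gapdh, Pfkl, Slc2a1, Slc2a6 and Pdk1 show no overlap between Tyrobp-/- and Tyrobp-intact libraries, while Aldoa, Eno1 and Slc16a1 do.

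At the end of the pathway, the lactate transporter Slc16a1 fell and lactate dehydrogenase did not pass. Slc16a1 encodes MCT1 and was at 56.0 and 39.1 CPM in Tyrobp-/-;NLGF and 41.0, 26.9 and 32.7 CPM in the compound mutant, against 52.2, 59.0 and 73.8 CPM in the Inpp5d single mutant and 78.3, 68.3 and 53.3 CPM in NLGF. Compound mutant replicates 2 and 3 were lowest, and Tyrobp-/-;NLGF replicate 1 overlapped both Tyrobp-intact groups (pooled log2 -0.70, SE 0.17, edgeR adjusted p = 0.0394). Slc16a3, the MCT4 exporter of highly glycolytic cells, had a log2 value of -0.39 (SE 0.17, adjusted p = 0.223 in edgeR).

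Ldha encodes the subunit that favours lactate production and Ldhb the one that favours its use. Ldha was at 540.0 and 489 CPM in Tyrobp-/-;NLGF and 585, 536 and 509 CPM in the compound mutant, against 510.2, 834 and 732 CPM in the Inpp5d single mutant and 583, 794 and 803 CPM in NLGF (pooled log2 -0.42, SE 0.13, edgeR adjusted p = 0.102). Ldhb did not pass either (0.11, SE 0.07, adjusted p = 0.468 in edgeR). Per length, Ldha made up 28.97% and 27.8% of lactate dehydrogenase transcript in Tyrobp-/-;NLGF and 28.9%, 28.5% and 26.7% in the compound mutant, against 31.8%, 38.8% and 38.2% in the Inpp5d single mutant and 31.6%, 35.9% and 38.6% in NLGF. The share was lower in every Tyrobp-/- library than in every Tyrobp-intact one. This ratio was singled out after its values were seen, among 8 gene families for which shares were computed, and is given without a test.

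**Figure D4:**
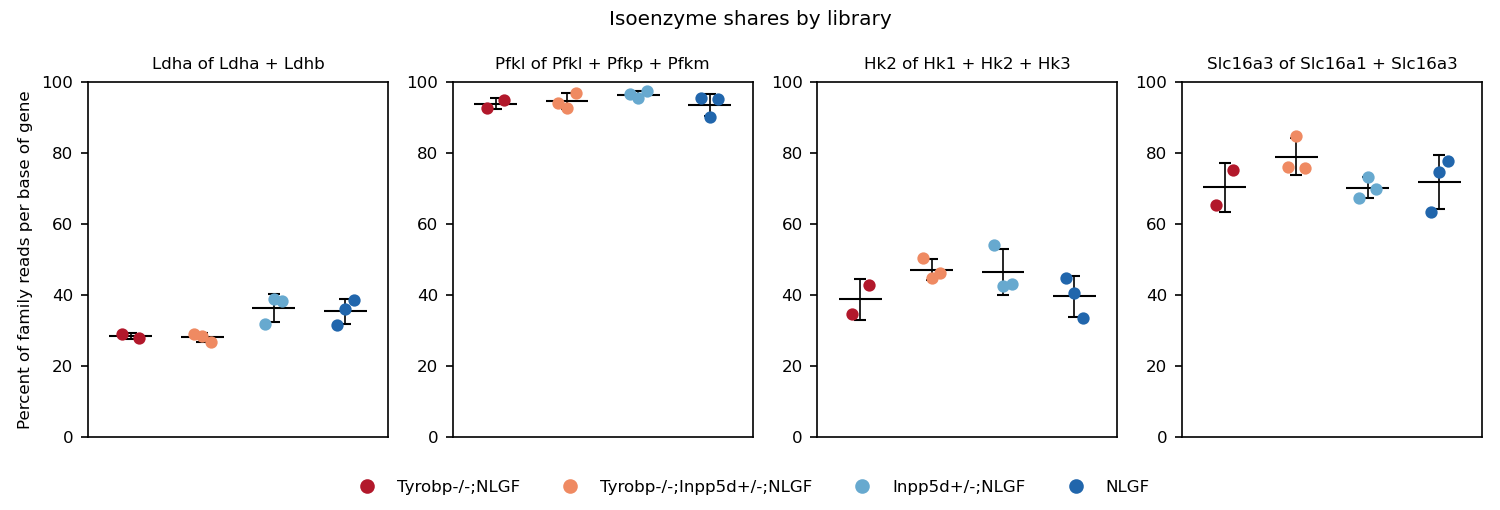
Share of each family's transcript per length that 1 isoenzyme makes up, in percent, 1 point per library, with the group mean and SD as bars, by group from Tyrobp-/-;NLGF to NLGF. The Ldha share lies at 26.7% to 28.97% in the Tyrobp-/- libraries and at 31.6% to 38.8% in the Tyrobp-intact ones.

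Of the genes that govern pyruvate entry into mitochondria, Pdk1 fell. Its kinase inactivates pyruvate dehydrogenase and so keeps pyruvate from oxidation. Pdk1 was at 135 and 99.7 CPM in Tyrobp-/-;NLGF and 119, 132 and 128 CPM in the compound mutant, against 155, 146 and 165 CPM in the Inpp5d single mutant and 169, 165 and 203 CPM in NLGF, without overlap (pooled log2 -0.43, SE 0.11, edgeR adjusted p = 0.0407). Each of the 3 values of the Inpp5d single mutant was also below each NLGF value, which held for 1 member, with 0 above (3.97% and 3.64% of all genes). The subunits of the mitochondrial pyruvate carrier had opposite signs, -0.25 for Mpc1 (adjusted p = 0.311 in edgeR) and 0.30 for Mpc2 (0.257), and neither passed. Mpc1 exons overlap those of 4930506C21Rik on the other strand over at most 1722 of 2082 bases, and reads within that overlap cannot be told apart. 4930506C21Rik averaged 125 CPM, against 164 CPM for Mpc1, and had a pooled log2 fold change of -0.24 (edgeR adjusted p = 0.365).

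Per length, the set was dominated by few genes. Over the 11 libraries Ldhb averaged 393 ± 30.8 FPKM (CPM divided by gene length in kilobases, SD), Gapdh 352 ± 71.6, Slc2a5 318 ± 71.0, Aldoa 232.8 ± 47.7 and Ldha 189.9 ± 40.4 FPKM. Gapdh differed by less than 1 of its SDs from its neighbours in this order, Ldhb and Slc2a5. Eno1 (130.3 ± 21.5 FPKM) and Pkm (128 ± 43.0 FPKM) had near-equal means, but their order differed by Tyrobp genotype. Per length, Eno1 was above Pkm in every Tyrobp-/- library and below it in every Tyrobp-intact one, narrowly so in NLGF replicate 1. Hif1a averaged 57.9 ± 26.6 FPKM and Slc2a1 37.5 ± 11.2 FPKM, while Pfkm, Pfkp, Pfkfb2 and Eno2 averaged below 0.85 FPKM. Within families, Pfkl made up 89.9% to 97.3% of phosphofructokinase, Slc2a5 82.1% to 92.2% of the 4 hexose transporters, and Hk2 and Hk3 together all but 0.840% to 7.28% of the 3 hexokinases.

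Loss of 1 Inpp5d copy called no member. In the compound mutant against Tyrobp-/-;NLGF 0 of 32 members passed in edgeR and 3 had an unadjusted p under 0.05, where 0.00981% of all genes were called and 4.08% had such a p. These 3 were Slc2a1 (log2 0.54, SE 0.17), Hif1a (0.49, SE 0.16) and Hk1 (-1.37, SE 0.43), each with an edgeR adjusted p of 1. The compound mutant libraries all lay above Tyrobp-/-;NLGF for 6 members and below for 3, against 9.13% and 9.66% of all genes. DESeq2 and limma-voom also called 0 members here, with 50 and 0 of all genes called.

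In the Inpp5d single mutant against NLGF 0 of 32 members were called by edgeR, DESeq2 or limma-voom, and 0 had an unadjusted p under 0.05, where 0% of all genes were called by edgeR and 4.66% had such a p. DESeq2 called 29 of all genes and limma-voom 0. In edgeR 24 of the 32 members had a negative sign, as in the pooled comparison, against 10084 of the 20390 genes tested. The median log2 fold change of the members was -0.11 with a median SE of 0.19, and values for single genes were 0.01 (SE 0.14) for Hif1a, -0.16 (SE 0.15) for Slc2a1 and -0.10 (SE 0.19) for Pkm. The interaction, which asks whether the Tyrobp effect differs with 1 Inpp5d copy, called 0 of 32 members (0% of all genes), and 2 had an unadjusted p under 0.05 (4.70% of all genes). Those 2 were Slc2a1 (0.70, SE 0.23) and Hif1a (0.48, SE 0.21), with edgeR adjusted p values of 1. DESeq2 and limma-voom called 0 members for the interaction too, with 36 and 0 of all genes called.

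Of the genes of surrounding pathways, taken from 8 lists, 0 to 2 a list were called in the pooled comparison, in which 5.37% of all genes were called. Of 17 tested genes among the other glycolysis and transport genes 1 fell and 1 rose. Slc2a8, which encodes the intracellular transporter GLUT8, was at 81.2 and 77.2 CPM in Tyrobp-/-;NLGF and 80.0, 79.1 and 70.3 CPM in the compound mutant, against 134, 128 and 105 CPM in the Inpp5d single mutant and 120.3, 107 and 114 CPM in NLGF (log2 -0.61, edgeR adjusted p = 0.00275). The Slc2a8 groups did not overlap. Adpgk, the ADP-dependent glucokinase, rose (0.80, adjusted p = 0.0435 in edgeR), and its value was 0.05 with neutrophil marker RNA as a covariate and 0.44 without the 2 libraries with most S100a8. The Adpgk call was kept in 2 of the 11 fits that left out a library, those without compound mutant replicate 1 or 3. Eno3, the muscle enolase, did not pass (1.36, 0.0777).

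In the pentose phosphate pathway, which branches off after hexokinase, 1 of 12 genes rose and 0 fell. Transaldolase, Taldo1, was at 288 and 273 CPM in Tyrobp-/-;NLGF and 268, 278 and 249.4 CPM in the compound mutant, against 163, 182 and 166 CPM in the Inpp5d single mutant and 183, 227 and 201 CPM in NLGF (log2 0.56, edgeR adjusted p = 0.00222), with no overlap. Prps2 (-0.36, adjusted p = 0.172 in edgeR) and Pgd (0.28, 0.215) did not pass. Among 16 tested genes of glycogen and hexosamine metabolism 1 fell, the lysosomal glucosidase Gaa (-0.66, edgeR adjusted p = 0.00286), and Uap1 (-0.53, 0.0695) and Pgm2l1 (1.72, 0.149) did not pass.

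Downstream of pyruvate, 0 of 10 tested genes of pyruvate dehydrogenase and its control passed in the pooled comparison, with 8 of 10 negative. The Inpp5d single mutant against NLGF also gave 8 of 10 negative in this list. The smallest p values of the pooled comparison were those of Pdp2 (log2 -0.48, edgeR adjusted p = 0.0551), Dld (-0.51, 0.123) and Pdha1 (-0.45, 0.127). Of 17 genes of the tricarboxylic acid cycle 1 fell, the succinate dehydrogenase subunit Sdha (-0.37, edgeR adjusted p = 0.0254), a call lost in 5 of the 11 fits that left out a library: those without compound mutant replicate 3, replicate 1 or 2 of the Inpp5d single mutant, or either Tyrobp-/-;NLGF library. Idh3g (0.24, 0.218) and Cs (-0.27, 0.265) did not pass. For gluconeogenesis 2 genes could be tested, Pck2 (0.31, edgeR adjusted p = 0.253) and G6pc3 (-0.07, 0.841), and neither passed.

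Genes that control HIF or are its targets outside glycolysis gave 1 lower and 0 higher among 18 tested. Egln3 encodes the prolyl hydroxylase PHD3, which marks HIF-α for degradation and is itself a HIF target. It was at 6.15 and 8.30 CPM in Tyrobp-/-;NLGF and 7.76, 8.26 and 6.23 CPM in the compound mutant, against 21.2, 48.6 and 43.5 CPM in the Inpp5d single mutant and 31.3, 35.4 and 29.9 CPM in NLGF. The Tyrobp-/- libraries lay tightly together, well below all others, and Egln3 was 4.80-fold lower (log2 -2.26, SE 0.22, edgeR adjusted p = 0.000326). It was also called lower in Tyrobp-/-;NLGF against NLGF (adjusted p = 0.0226 in edgeR) and in the compound mutant against the Inpp5d single mutant (0.00818) and against NLGF (0.0134). P4ha1 (0.31, edgeR adjusted p = 0.0941) and Ndrg1 (6.00, SE 1.96, 0.115) did not pass.

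Among 15 genes of glucose-sensing transcription and mTORC1, 1 rose and 1 fell. Txnip and Arrdc4 encode related arrestins that reduce glucose uptake and are both known to be induced by glucose through MondoA and ChREBP. Txnip was at 700.2 and 782 CPM in Tyrobp-/-;NLGF and 654, 724 and 634 CPM in the compound mutant, against 464, 396 and 250.1 CPM in the Inpp5d single mutant and 409, 343 and 318 CPM in NLGF. Arrdc4 went the other way, at 33.4 and 19.7 CPM in Tyrobp-/-;NLGF and 15.7, 36.8 and 33.1 CPM in the compound mutant, against 59.7, 81.4 and 88.0 CPM in the Inpp5d single mutant and 70.5, 75.8 and 57.3 CPM in NLGF. Neither gene overlapped between Tyrobp-/- and Tyrobp-intact libraries, with log2 fold changes of 0.95 for Txnip (SE 0.14, edgeR adjusted p = 0.00401) and -1.39 for Arrdc4 (SE 0.23, 0.00716). Of the listed genes given as not passing, 4 passed when 1 library was left out, with edgeR adjusted p values of 0.0331 for Eno3 (without replicate 2 of the Inpp5d single mutant), 0.0245 for Pdp2 (without replicate 3 of that group), 0.0364 for P4ha1 (without NLGF replicate 3) and 0.0364 for Pgm2l1 (without compound mutant replicate 1).

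Neutrophil and monocyte RNA moved with Tyrobp genotype beside these results. In the pooled comparison 11 of 14 neutrophil markers, 4 of 9 monocyte markers and 2 of 10 microglial markers were called higher, and 0 of these were called lower. Other lists gave 1 of 7 border macrophage markers higher, 2 of 6 oligodendrocyte markers higher, 1 higher and 1 lower of 6 tested endothelial markers, and 0 among neuronal, astrocyte, lymphocyte and erythroid markers. The border macrophage markers summed to 42.7 to 125 CPM in Tyrobp-/-;NLGF and 21.3 to 94.3 CPM in the compound mutant, against 2.41 to 25.3 CPM in the Inpp5d single mutant and 1.70 to 17.4 CPM in NLGF. The mean log2 CPM of the neutrophil markers was 2.51 to 8.39 in the Tyrobp-/- libraries and -0.19 to 2.64 in the Tyrobp-intact ones. As a covariate it therefore cannot be fully separated from Tyrobp genotype, and the SE of Pkm was 0.21 with it and 0.14 without. With the mean log2 CPM of the neutrophil markers as a covariate, 1 member was called in the pooled comparison, Hif1a (log2 -1.42, SE 0.24, edgeR adjusted p = 0.0489), while Pkm had a log2 value of -1.21 (adjusted p = 0.0547 in edgeR), Slc2a6 of -0.99 (0.313), Gapdh of -0.63 (0.177), Pfkl of -0.50 (0.356) and Slc2a1 of -0.46 (0.564). In that fit 68 of all genes were called. Of the pathway genes called in the pooled comparison, Arrdc4 kept its call with the covariate (log2 -2.11, edgeR adjusted p = 0.0479). Adpgk lost it, as did Slc2a8 (-0.61, 0.189), Taldo1 (0.53, 0.181), Gaa (-0.52, 0.282), Egln3 (-2.27, 0.0549), Txnip (0.998, 0.185) and Sdha (-0.32, 0.479). All of these kept their sign in that fit and without the 2 libraries with most S100a8.

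Without the 2 libraries with most S100a8, Tyrobp-/-;NLGF replicate 1 and compound mutant replicate 2, 3 members passed in the pooled comparison (edgeR adjusted p = 0.00251 for Hif1a, 0.0241 for Pkm and 0.0273 for Slc2a6), and 0 in Tyrobp-/-;NLGF against NLGF. Over all genes 318 and 27 were called in these fits, against 1094 and 176 with all libraries. The pooled log2 fold change without them was -1.43 for Hif1a, -0.99 for Pkm, -0.99 for Slc2a6, -0.51 for Gapdh (edgeR adjusted p = 0.0765), -0.52 for Pfkl (0.101) and -0.65 for Slc2a1 (0.0991). In Tyrobp-/-;NLGF against NLGF it was -1.63 for Hif1a, -0.996 for Slc2a1 and -0.73 for Pfkl. Only replicate 2 of Tyrobp-/-;NLGF remained there, so the values and the count of that comparison rest on a group without replication. Csf3r alone gave most of the neutrophil sum in each Tyrobp-intact library, with 22669 counts in NLGF replicate 1 against 15 of S100a8. Compound mutant replicate 1 had a neutrophil sum of 495 CPM, inside the Tyrobp-intact range. Its S100a8 (94.0 CPM, against 0.240 to 80.8 CPM) and its monocyte sum (125 CPM, against 16.3 to 78.0 CPM) lay above the Tyrobp-intact ranges. The sum therefore does not show that this library was matched to them in neutrophil RNA. In compound mutant replicate 1 Hif1a was at 160.2 CPM, Pkm at 376 CPM and Slc2a1 at 116 CPM. Those 3 values lay below every Tyrobp-intact library, as the plot against neutrophil markers shows. Beyond these values, the part of neutrophil, monocyte and border macrophage RNA in the members' changes was not tested.

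**Figure D5:**
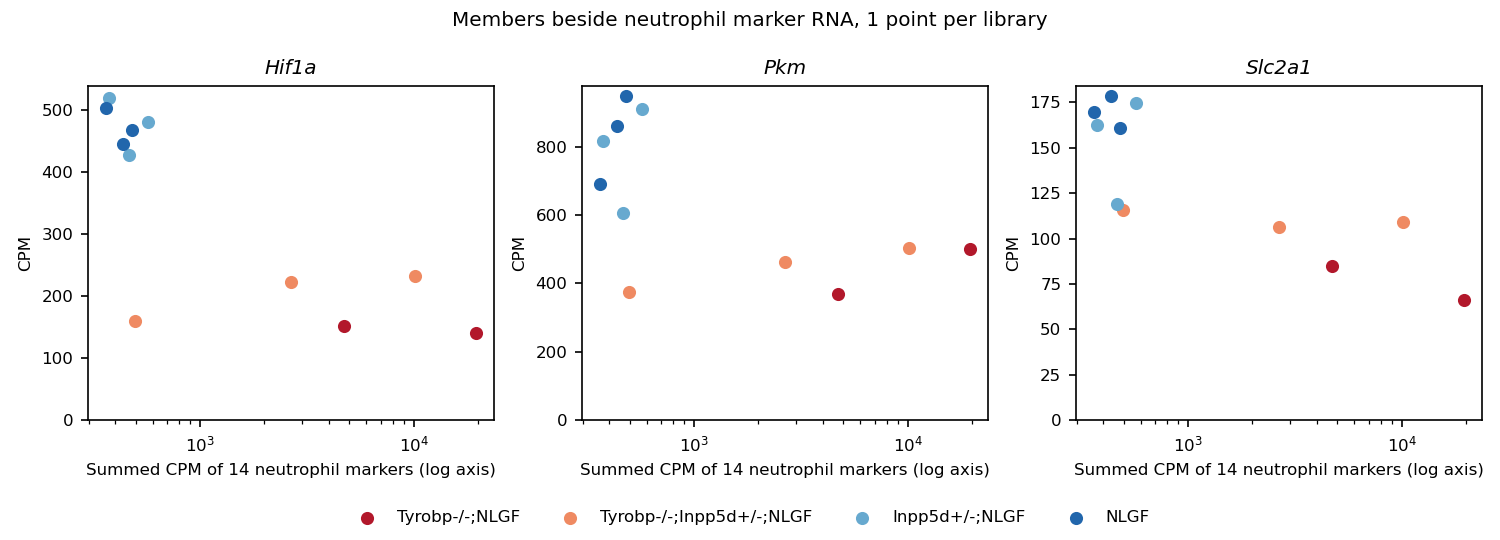
CPM of Hif1a, Pkm and Slc2a1 against the summed CPM of 14 neutrophil markers (log axis), 1 point per library, by group. Neutrophil sums span 495 to 19503 CPM in the Tyrobp-/- libraries and 364 to 569 CPM in the Tyrobp-intact ones, where Csf3r made up most of each sum. Hif1a lay between 139.9 and 232.9 CPM in the Tyrobp-/- libraries and between 428 and 520 CPM in the Tyrobp-intact ones, and the Tyrobp-/- library at 495 CPM has a Hif1a level of 160.2 CPM.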

How the data were processed

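Sorted microglia were extracted with an RNeasy kit and libraries made with SMART-Seq v4, which marks no strand, per the labels' protocols. The submitters' processing notes name STAR (2.7.3a), featureCounts (1.6.4) and, as builds, both GRCm38.p6 and mm10. The table the authors deposited holds raw whole-number counts for each gene, with its length. For the annotation release, the strand setting and reads with several positions, the answer is not given in the sources used here. No library pair was identical, and all 37 mitochondrial rows held 0. The labels tie no library to a litter, so a p-value covers only the spread among these samples.

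The filter was filterByExpr (minimum count 10, minimum total 15). After TMM scaling, edgeR 4.0.16 under R 4.3.3 fitted quasi-likelihood models to all 11 libraries, with 1 coefficient per group, or with additive Tyrobp and Inpp5d terms for the pooled comparison. Benjamini-Hochberg adjustment ran over 20390 genes. The procedure was tested on simulated data. CPM use TMM-scaled totals, and FPKM divide them by the deposited length. Floors of 3 counts cover counting error only. DESeq2 1.42.0 and limma 3.58.1 (voom) were alternatives, with other scalings, filters, a threshold of 0.1, a neutrophil covariate and omitted libraries. Members and lists were chosen with earlier results of these data known. Values for every library were given for members called in any comparison, and up to 3 genes per pathway list, those with the smallest pooled p, were named. A result that this rule would name is not reported here. Other genes named were chosen after their values were seen.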

Additional observations from a re-analysis of the deposited data

How the results depend on the processing

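Every log2 fold change of the called members in the 4 comparisons of Tyrobp loss kept its negative sign under each alternative scaling, filter, tool, covariate and set of libraries run. Counts of members called depended more on the setting. DESeq2 called 9 members in Tyrobp-/-;NLGF against NLGF, 7 in the compound mutant against the Inpp5d single mutant and 10 in the compound mutant against NLGF, where edgeR called 3, 1 and 1. Over all genes it called 1035, 1042 and 1008 in these comparisons and 2229 in the pooled one, where edgeR called 176, 183, 178 and 1094. A threshold of 0.1 gave 2 and 6 in the comparisons of the compound mutant (376 and 339 of all genes), and a minimum count of 50 gave 2 and 3 (257 and 240 of all genes). Fitting only the 2 groups of Tyrobp-/-;NLGF against NLGF gave 1 (77 of all genes). With neutrophil markers as a covariate the counts were 0 in Tyrobp-/-;NLGF against NLGF, 0 in the compound mutant against NLGF and 1 in the pooled comparison, with 13, 35 and 68 of all genes called. Without the 2 libraries with most S100a8 they were 0 in Tyrobp-/-;NLGF against NLGF and 3 in the pooled comparison, with 27 and 318 of all genes. The cause of these differences was not tested, and the fit without those 2 libraries left Tyrobp-/-;NLGF with replicate 2 alone. Leaving out 1 library at a time gave 1 to 3 in Tyrobp-/-;NLGF against NLGF, 1 to 2 in each comparison of the compound mutant with a Tyrobp-intact group, and 5 to 11 in the pooled comparison; a group left with 1 library was assumed to vary like the others. The compound mutant against Tyrobp-/-;NLGF, the Inpp5d single mutant against NLGF and the interaction gave 0 members under all alternatives run. In the pooled comparison the sign turned for G6pc3 (0.20 with the covariate, and -0.11 to 0.022 when 1 library was left out, above 0 without NLGF replicate 1), Pgd (-0.026 with the covariate) and Pgm2l1 (-0.36 with the covariate), none of them called. No paired analysis was possible because replicate numbers follow accession order and the labels share no number between groups. Low counts limit the precision for Eno2, Pfkm, Pfkp and Pfkfb2.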
